A study of Bos taurus with 2 samples.

Results

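The first 5 Mb of the 29 bovine autosomes, counted from position 0 of each chromosome sequence, were examined for enrichment of H3K4me3 in the longissimus dorsi (LD), the long muscle of the back. Peaks of the tender and tough libraries that overlapped by at least 1 bp were merged, and a merged region belonged to the first 5 Mb when its centre lay below position 5000000. This rule used positions only and gave 730 of the 13912 merged autosomal regions (5.25%), and the other 13182 regions formed the rest of the chromosomes. Trimethylation of lysine 4 of histone H3 (H3K4me3) sits on nucleosomes around the start sites of active or poised genes and marks promoters in nearly all tissues. Cattle autosomes are acrocentric: the centromere lies at one end, next to long satellite arrays, and chromosome sequences are numbered from that end. Centromeric chromatin itself is compact and poor in genes, whereas the unique sequence beside it can hold ordinary gene-rich segments or arrays of olfactory receptor genes.

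All animals were purebred Angus steers harvested at about 12 months of age, and no treatment is named. The tender group was made of the 4 steers with the lowest Warner-Bratzler shear force of the cooked muscle (6.77 ± 0.56 kg) and the tough group of the 5 with the highest (19.93 ± 0.39 kg) out of 19 measured, and the kind of the error is not given in the sources used here. Chromatin was pooled within each group and sequenced as 1 library, so there was no replicate in any comparison and no test between the groups. The steers of each group are averaged in its pool, and a larger share of nuclei with the mark cannot be told apart from more mark per nucleus. LD holds muscle fibres, satellite cells, fat and vessel cells, and the tissue label was not checked against marker promoters because a gene annotation of the build of these lists was not used here.

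On the autosomes, 12607 peaks were present in the tender list and 11277 in the tough list. A peak carries a SICER score, obtained by adding up over its 200 bp windows how improbable each window's read count is (on the negative natural log scale) under a Poisson law with the library mean. At a given library mean the score rises with the reads in a window, and at given reads it falls as the mean rises, so raw scores of the libraries are not on the same scale. Over all autosomal pairs the median log2 ratio of tender to tough score was 0.19, while that of reads was 0.00. The mean number of reads per window, solved from the scores, was 0.157 for tender and 0.182 for tough, so that the tough library was 1.17 times as deep. The reads behind a peak could be solved up to a score of 180, which covered 93.9% of the tender and 96.5% of the tough autosomal peaks. All intervals given are 95% intervals and treat neighbouring regions as independent. Those of shares, counts and ratios cover counting error only. Those of medians come from the ranks of the peaks within 1 library. None covers differences between steers.

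Over all autosomes, the first 5 Mb were somewhat poorer in H3K4me3 regions than the rest. They held 5.03 regions per Mb over 145 Mb, against 5.58 per Mb over the remaining 2361.8 Mb, a ratio of 0.902 (exact interval 0.836 to 0.972). The direction depended on the limits: with the first 3 Mb in place of 5 Mb the ratio was 1.00, and with 5 Mb counted from the first region of each chromosome it was 1.02. With the first 10 Mb it was 0.806. Pooled over chromosomes, the stretch from 5 to 10 Mb held fewer regions than the first 5 Mb, so a low density was not particular to the end. If each chromosome had kept its own density outside the first 5 Mb, 877.4 regions would have been counted in place of 730, a ratio of 0.832. Regions covered 1.42% of the sequence in the first 5 Mb and 1.60% in the rest. At the opposite end, the last 5 Mb before the final peak of each chromosome held 1262 regions (8.70 per Mb), more than the first 5 Mb on 23 of 29 chromosomes.

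The average hid a large spread between chromosomes, since a few centromere ends were dense with H3K4me3 and most were sparse. Uneven density was not particular to these ends. Their 1 Mb bins had a median of 2 regions, a mean of 5.03 and a maximum of 37, against 3, 5.53 and 46 in the rest. The median ratio of the chromosomes was 0.568 (quartiles 0.186 and 1.31). The density was above that of the rest on 9 chromosomes and below it on 20, including 13 with a ratio below 0.5. The exact interval lay above 1 on 7 chromosomes (7, 11, 14, 16, 20, 24 and 25), below 1 on 16, and spanned 1 on 6. Ranks among the 5 Mb blocks of the same chromosome were less marked than these intervals. Chromosomes 17 and 18 had intervals below 1, but their first blocks ranked near the middle. On chromosome 17, 8 other blocks were fuller and 6 emptier, and on chromosome 18, 6 were fuller and 6 emptier. The first block was the fullest of its chromosome on chromosomes 14 and 25, the emptiest or tied for it on 6 (chromosomes 9, 13, 15, 19, 23 and 26), above the median of the other blocks on 10 and below it on 19.

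**Figure D1:**
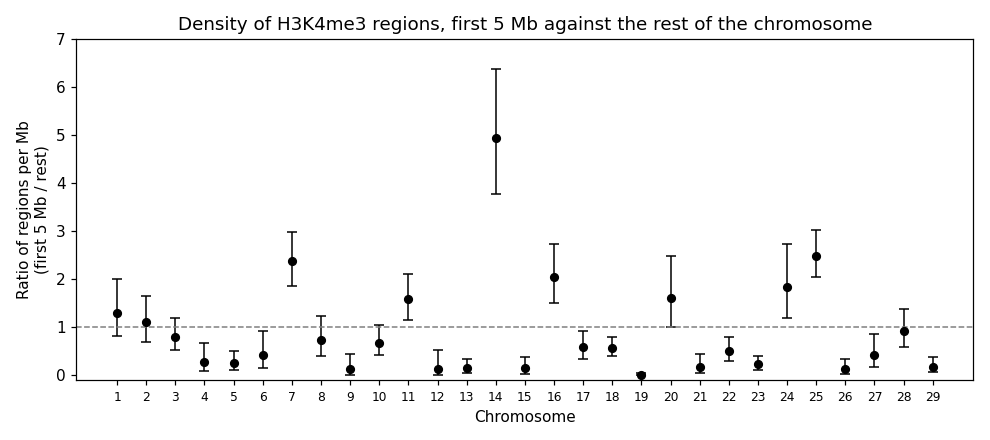
Ratio of merged H3K4me3 regions per Mb in the first 5 Mb to that in the rest of the same chromosome, for autosomes 1 to 29, with exact 95% intervals for counting error and a dashed line at a ratio of 1. Chromosome 14 stands at 4.93 and chromosome 19 at 0, while 20 of the 29 points lie below the line.

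Chromosomes 25, 7, 14, 16 and 11 held 401 of the 730 regions (54.9%) in the first 5 Mb. Together these 5 ends had 16.04 regions per Mb, 2.64 times the 6.08 per Mb of the rest of the same chromosomes. The other 24 ends had 329 regions, or 2.74 per Mb against 5.48 per Mb in their rest, a ratio of 0.50. These 5 chromosomes were singled out by the counts themselves, so the contrast between both sets of ends is a description. The number of regions per chromosome end had a median of 19, and 12 chromosomes with at most 8 regions held 56 in all.

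Chromosome 25 was the fullest, with 138 regions (18.9% of the total). Its first 5 Mb carried 27.6 regions per Mb against 11.08 in its rest, a ratio of 2.49 (2.04 to 3.03), while the fullest of its other 5 Mb blocks held 112 and the median block 40. The regions ran evenly along the first 4 Mb, with 30, 37, 35 and 30 in successive 1 Mb bins, and fell to 6 in the bin from 4 to 5 Mb. Of the 138 regions, 97 were shared, 28 were tender-only and 13 tough-only. In the RefSeq gene order of assembly ARS-UCD2.0, which was used for names and neighbourhood only, the named protein-coding genes at this end begin with IL9R, POLR3K (a subunit of RNA polymerase III), SNRNP25, RHBDF1, MPG (a DNA repair glycosylase) and NPRL3. They are followed by the alpha-globin cluster (HBZ, HBM, HBA, HBA1 and HBQ1) and then by LUC7L and AXIN1, a scaffold of the beta-catenin destruction complex, among others. Gene order may differ between assemblies, and no peak was assigned to a gene on any chromosome.

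Chromosome 14 had the highest ratio. Its first 5 Mb held 78 regions (15.6 per Mb) against 3.16 per Mb in its rest, a ratio of 4.93 (3.77 to 6.38), and the fullest of its 15 other blocks held 34. These regions were concentrated in the bins between 1 and 3 Mb, with 3, 31, 30, 7 and 7 regions in successive 1 Mb bins. Shared regions numbered 56, tender-only 15 and tough-only 7. The gene order at this end opens with an olfactory receptor gene, OR10AG83, followed by zinc finger genes (ZNF250, ZNF16, ZNF34 and ZNF7) around RPL8, which encodes a protein of the large ribosomal subunit. Further along stand GPT (alanine aminotransferase), DGAT1, which encodes an enzyme of triglyceride synthesis, and HSF1, the main factor of the heat shock response.

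Chromosome 7 held 81 regions (16.2 per Mb against 6.82 in its rest, ratio 2.38, 1.86 to 2.99), of which 60 were shared, 15 tender-only and 6 tough-only. In contrast to chromosomes 25 and 14, its fullest bin was the last, with 5, 14, 17, 12 and 33 regions from the end inwards. The gene order there opens with an olfactory receptor gene and continues with FLT4 (a receptor of vascular endothelial growth factors), CNOT6, GFPT2 and MAPK9, a stress-activated kinase. Later in the order are SQSTM1, an autophagy receptor, and CANX, a chaperone of the endoplasmic reticulum.

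Chromosome 16 held 54 regions (10.8 per Mb against 5.27, ratio 2.05, 1.51 to 2.73), spread evenly as 8, 9, 11, 14 and 12 per bin. Of these, 34 were shared, 15 were tender-only and 5 tough-only. Past 3 olfactory receptor genes, the gene order lists TMEM183A, PPFIA4, MYOG (number 6 from the end), ADORA1 and MYBPH. MYOG encodes myogenin, the factor that drives the differentiation of myoblasts, and MYBPH a myosin binding protein. Chromosome 11 held 50 regions (10 per Mb against 6.32, ratio 1.58, 1.16 to 2.11), with 22 of them between 2 and 3 Mb, and 34 shared, 10 tender-only and 6 tough-only. Its gene order begins with ZC3H6, ZC3H8, FBLN7, TMEM87B, MERTK, a receptor for the uptake of dying cells, ANAPC1 and BCL2L11, a promoter of apoptosis.

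**Figure D2:**
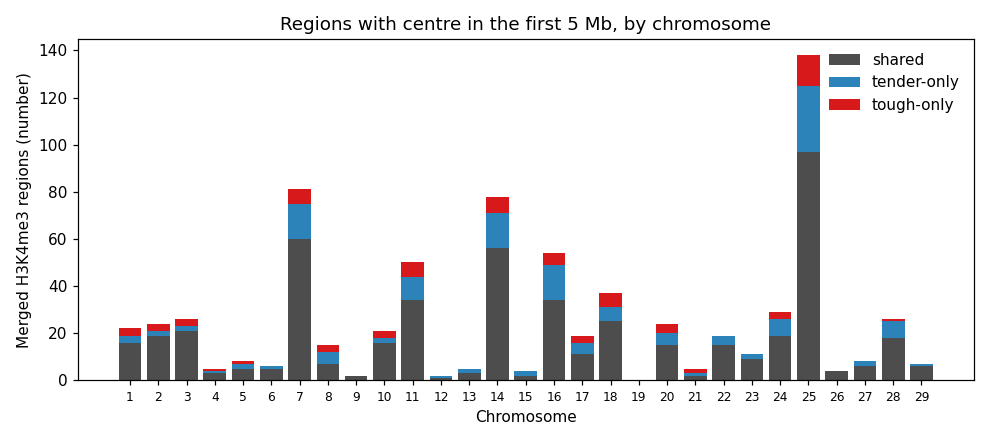
Number of merged H3K4me3 regions with centre in the first 5 Mb of each autosome, stacked by whether the region was called from both pools (shared) or from a tender or tough pool alone. Chromosome 25 holds 138 regions, chromosomes 7 and 14 hold 81 and 78, and chromosome 19 holds none.

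A pair of smaller ends was also above their rest. Chromosome 24 had 29 regions (5.8 per Mb against 3.15, ratio 1.84, 1.20 to 2.74), placed evenly as 8, 5, 7, 5 and 4 per bin. Chromosome 20 had 24 (4.8 per Mb against 2.97, ratio 1.62, 1.01 to 2.48), of which 15 lay between 4 and 5 Mb. Chromosome 18, dense in H3K4me3 regions as a whole, had a ratio below 1. It had 37 regions, which made it the sixth fullest end, but this was 7.4 per Mb against 13.02 in its rest, a ratio of 0.57 (0.40 to 0.79). Among the 5 Mb blocks of the chromosome this was a middle place. Of its 12 other blocks, 6 were fuller and 6 emptier, with a median of 44 and a maximum of 142 regions. Between 1 and 3 Mb the end of chromosome 18 held 34 of its 37 regions.

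The emptiest end in the lists used here was that of chromosome 19, the densest chromosome elsewhere. It held 0 regions in its first 5 Mb, while its rest held 977 regions at 16.58 per Mb. The upper exact limit of its ratio was 0.04. Its other 11 blocks held between 38 and 144 regions each, and its first region, a shared region, started at 5289.2 kb. The genes that open the RefSeq order of this chromosome are 2 olfactory receptor genes (OR4C1F and OR4C1E), CA10 and KIF2B. On the build of the second peak lists described below, the end of chromosome 19 held 10 regions (ratio 0.12). Chromosome 9 had 2 regions, both in the first bin (ratio 0.13, 0.02 to 0.46), chromosome 26 had 4 (0.13, 0.04 to 0.34), chromosome 12 had 2 (0.14, 0.02 to 0.52) and chromosome 13 had 5 (0.15, 0.05 to 0.34). All 6 regions of chromosomes 9 and 26 were shared. The order of chromosome 12 opens with PCDH20, TDRD3 and DIAPH3, and that of chromosome 9 with 2 olfactory receptor genes, PTP4A1 and PHF3.

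The first H3K4me3 region appeared close to the end on most chromosomes. Its start had a median of 203.2 kb and lay within the first 1 Mb on 24 chromosomes. It lay further in on chromosomes 6 (2117.8 kb), 12 (1750.6 kb), 15 (1716.0 kb), 19 and 23 (2405.2 kb). Of these, only chromosome 6 also had a first region beyond 1 Mb in the second peak lists described below. Summed over the 29 chromosomes, successive 1 Mb bins held 126, 186, 172, 113 and 133 regions, followed by 105, 108, 121, 131 and 132 between 5 and 10 Mb. The rise between 1 and 3 Mb came mostly from the 5 fullest chromosomes, which gave 100 and 115 of the regions in these bins. The other 24 chromosomes together had 72, 86, 57, 44 and 70 regions from the end inwards, and 67, 87, 106, 113 and 112 between 5 and 10 Mb. Empty bins were more frequent in the first 5 Mb, where 46 of 145 (31.7%) had no region, against 494 of 2349 (21%) in the rest. From the end inwards, successive bins were empty on 5, 8, 9, 14 and 10 of the 29 chromosomes. The bin nearest the end was thus the least often empty of the 5. Bins with at least 15 regions made up 8.28% in the first 5 Mb and 9.41% in the rest. Pooled over all ends, the gap between neighbours had a median of 41.6 kb (quartiles 13.2 and 116.15) against 47.8 kb (14.8 and 139.2) in the rest. Gaps under 10 kb made up 19.6% and 19.0%. This pool is weighted towards the 5 fullest ends, which held 401 of the 730 regions. It does not give the spacing at a typical end.

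**Figure D3:**
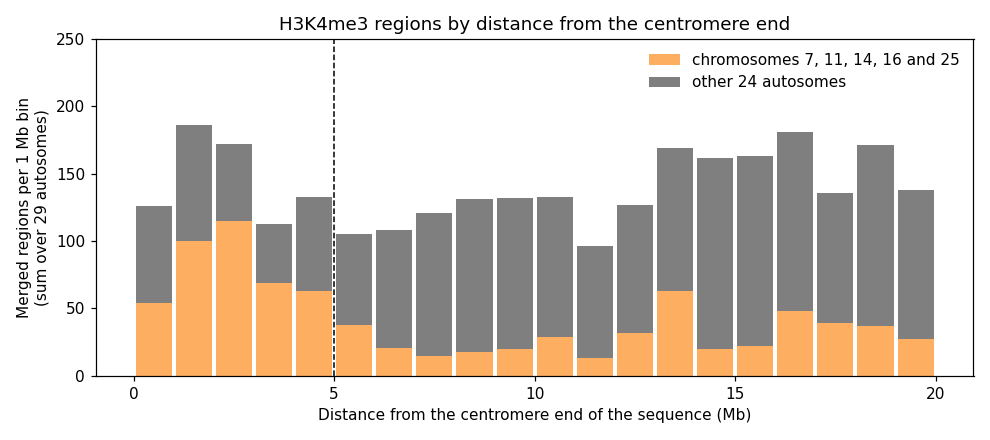
Merged H3K4me3 regions in 1 Mb bins by distance from the centromere end of the sequence (Mb), summed over 29 autosomes, with chromosomes 7, 11, 14, 16 and 25 in orange, the other 24 in grey and a dashed line at 5 Mb. The bins from 1 to 3 Mb hold 186 and 172 regions, of which 100 and 115 come from the 5 orange chromosomes.

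Just inside the limit lay a shared region of chromosome 7 from 4998801 to 5001000, and just outside it a tough-only region of chromosome 4 from 5021401 to 5022400.

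The tender and tough libraries had the mark at mostly the same regions of the first 5 Mb. Of the 730 regions, 511 were shared (70.0%, Wilson interval 66.6 to 73.2), 146 were tender-only (20%, 17.3 to 23.1) and 73 tough-only (10%, 8.03 to 12.4). Over all autosomal regions, 19.7% were tender-only and 11.3% tough-only, and 68.9% of the regions of the rest were shared. The make-up of the first 5 Mb was therefore within counting error of that of the rest. Among the fullest ends the shared proportion ran from 63.0% on chromosome 16 to 74.1% on chromosome 7. Tender-only regions outnumbered tough-only regions in the whole genome lists too, where the tender list is the longer one.

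Regions found in only 1 library rested on few reads. Tender-only peaks of the first 5 Mb had a median of 12 reads (quartiles 11 and 15) and tough-only peaks 14 (13 and 18), whereas peaks of shared regions had a median of 24 in both libraries. The highest-scoring tender-only region was found at positions 2769801 to 2772400 of chromosome 25 and scored 121.8 with 39 reads. It was followed by 2 more on chromosome 25, from 2350801 to 2352400 (score 74.3, 25 reads) and from 2378001 to 2380400 (63.9, 25 reads). The next stood on chromosome 7 from 771401 to 772800 (61.5, 23 reads) and on chromosome 16 from 537801 to 539400 (58.2, 21 reads). All 5 highest tender-only regions lay on the ends of chromosomes 25, 7 and 16, which were among the 5 fullest. Those 5 ends held 401 of the 730 regions of any kind (54.9%), so this location is no trait of tender-only regions. The highest of the 5 tender-only regions was set apart from the other 4 by its score. The peak lists do not give the tough reads at the places of these tender-only regions.

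The 5 highest tough-only regions had lower scores per window and were mostly wider. The first was on chromosome 11 from 53001 to 55400 (score 59.5, 22 reads). The next were on chromosome 11 from 2218801 to 2224400 (57.0, 27 reads), on chromosome 2 from 1279801 to 1283400 (56.1, 24 reads), and on chromosome 8 from 680801 to 687400 (55.5, 27 reads) and from 1742401 to 1745400 (51.0, 22 reads). The score per window of these 5 ranged from 1.68 to 4.96, against 5.32 to 9.37 for the 5 highest tender-only regions. The median length of tough-only peaks in the first 5 Mb was 2400 bp and that of tender-only peaks 1800 bp, against 2800 and 1800 bp in the rest. Their median scores per window were 2.54 (tough-only) and 3.94 (tender-only), against 2.36 and 3.40 in the rest. Over all peaks of the first 5 Mb, the median per window was also lower in the tough library (4.85 against 6.50). The difference was thus not particular to these regions, and scores of the libraries are not on the same scale.

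Peaks of the first 5 Mb were similar in length to those elsewhere and slightly lower in score. The median tender peak was 1800 bp long (quartiles 1400 and 2800) against 2000 bp in the rest, and the median tough peak was 2400 bp in both. Merged regions had a median length of 2600 bp in both, and the longest was 19.6 kb in the first 5 Mb. The median score was 55.8 (interval of the median 51.8 to 60.8) in the tender library against 60.2 (59.2 to 61.5) in its rest. It was 54.9 (51.3 to 59.8) in the tough library against 58.3 (57.1 to 59.1). For these scores the intervals overlapped in both libraries. Behind these scores stood a median of 20 reads (14 and 30.75) per tender peak and 22 (16 and 31) per tough peak, where solved, against 21 and 23 in the rest.

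The highest score in the first 5 Mb was 455.0 for tender and 468.2 for tough. Of the 17 chromosomes with at least 10 regions in the first 5 Mb, the median score there was below that of the rest of the chromosome on 11 for the tender and on 12 for the tough library. Per window, the median tough score was 4.85 (4.57 to 5.00) in the first 5 Mb against 5.13 (5.05 to 5.20) in the rest, with intervals apart. The median tender score per window was 6.50 (6.23 to 7.00) against 6.59 (6.49 to 6.69), with intervals overlapping. Tough peaks of the 5 fullest ends had 4.47 (4.15 to 4.88) against 5.11 (4.93 to 5.28) in the rest of the same chromosomes, with intervals apart. Tough peaks of the other 24 ends had 5.09 (4.84 to 5.54) against 5.14 (5.05 to 5.21). In the tender library the medians were 6.16 (5.66 to 6.75) against 6.63 (6.42 to 6.85) on the 5 fullest ends. They were 6.95 (6.43 to 7.63) against 6.58 (6.46 to 6.69) on the others.

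The strongest H3K4me3 region of the first 5 Mb, by the sum of both scores, was on chromosome 25 from 3417601 to 3427800, with scores of 455.0 (tender) and 429.3 (tough). It was a broad region of 10.2 kb covered by 1 peak in each library. The second, also on chromosome 25, from 1505201 to 1524800, was the longest of all at 19.6 kb. It was broken into 4 tender peaks with a summed score of 433.8 and 2 tough peaks with 435.7. Both regions had nearly equal scores in the 2 libraries.

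The third, on chromosome 28 from 1893401 to 1895400, was of another shape. Only 2.0 kb long, it had scores of 327.5 (tender) and 468.2 (tough), and its score per window, 32.7 and 52.0, was the highest of the first 5 Mb in both libraries. A second strong region of chromosome 28, from 3355801 to 3360800, scored 350.0 (tender) and 262.7 (tough). Its end holds 26 regions at 5.2 per Mb against 5.68 in its rest, a ratio of 0.92 (0.59 to 1.38). In the RefSeq order this end opens with 5 olfactory receptor genes, RHOU, RAB4A, CCSAP and then ACTA1, the gene of skeletal muscle alpha-actin, which is number 9 from the end. Of 28 genes listed for muscle structure, myogenic factors, the calpain system and other tissues, ACTA1, MYOG and the neuronal gene SNAP25 (number 8 on chromosome 13) were within the first 10 of their chromosome in that order.

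The other 6 of the 10 strongest regions were on chromosomes 20, 5, 16 and 7. On chromosome 20 a region of 10 kb from 4444201 to 4454200 scored 339.3 (tender) and 303.5 (tough). On chromosome 5 a region from 1276201 to 1279800 scored 343.5 and 272.1, although only 8 regions were found at that end. Chromosome 16 held a region from 4722201 to 4728000 (261.4 and 340.4) and another from 595001 to 601800 (216.6 and 244.9). Chromosome 7 held a region from 3890001 to 3893000 (274.3 and 214.6) and another from 2814001 to 2819600 (246.8 and 208.4). The tough score was the higher in 4 of the 10 strongest regions and in 36.3% of all shared autosomal regions. In 9 of the 10, both scores exceeded 180 and the reads behind them could not be solved. In the long region of chromosome 25, reads were solved for 3 of the 4 tender peaks (41, 25 and 23) and for 1 of the 2 tough peaks (71).

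The longest regions after that of chromosome 25 were 2 of 10.2 kb, the strongest region above and one on chromosome 7 from 4529001 to 4539200. The latter had 1 tender peak with a score of 283.9 and 2 tough peaks with a summed score of 154.9. A region of 9.4 kb on chromosome 7 from 4094801 to 4104200 was another of the 5 longest and the most unequal of the pairs. Such broken regions were rare. Of the 511 shared regions, 491 (96.1%) paired 1 tender with 1 tough peak, 14 (2.74%) had several tender peaks and 7 (1.37%) several tough peaks, against 96.4%, 2.69% and 1.09% in the rest.

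Within pairs the 2 libraries gave similar numbers of reads. Reads were not scaled for depth here or for the named pairs below, and the tough library was 1.17 times as deep. Reads were counted inside the peak called in each library, so reads outside the shorter peak of a pair are left out and the ratio can follow peak width. Reads were solved for both peaks in 459 of the 491 pairs, with medians of 24 (tender) and 23 (tough). The log2 ratio of tender to tough reads, centred on the median of all autosomal pairs, had a median of 0.00 (quartiles −0.28 and 0.35). Tender reads exceeded tough reads by 2-fold or more in 13 pairs (2.83%, 1.66 to 4.78), against 2.77% of all autosomal pairs. Tough reads exceeded tender reads by 2-fold or more in 11 pairs (2.40%, 1.34 to 4.24), against 2.25% of all. Neither proportion departed from that of all pairs beyond counting error. The rank correlation of the 2 scores over pairs was 0.716 in the first 5 Mb and 0.759 in the rest, where pairs share their libraries and range of scores.

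**Figure D4:**
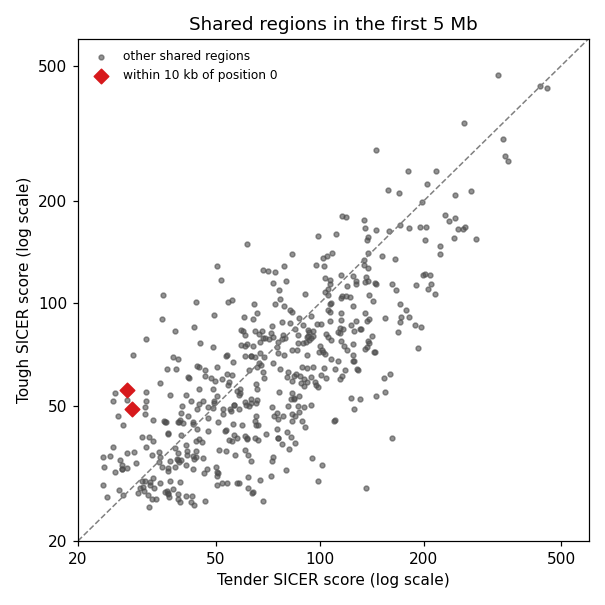
Tender against tough SICER score of the shared regions in the first 5 Mb, both axes logarithmic, summed over peaks where a region has several; the dashed line marks equal scores and red diamonds the 2 shared regions within 10 kb of position 0. The points follow the line with a broad spread up to scores of 455.0 and 468.2, and both diamonds lie above it.

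Tough peaks were the longer in 309 of the 491 pairs (62.9%, 58.6 to 67.1) and tender peaks in 143 (29.1%), with 39 of equal length. Over all autosomal pairs the tough peak was longer in 59.7% and the tender peak in 30.3%. On the fullest ends the proportion with a longer tough peak was 78.6% on chromosome 7 (44 of 56 pairs), 63.6% on chromosome 11, 58.7% on chromosome 25, 55.9% on chromosome 16 and 54.9% on chromosome 14.

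The highest ratio of tender to tough reads in called peaks was at the 9.4 kb region of chromosome 7 (4094801 to 4104200), with 59 tender and 13 tough reads, a ratio of 4.54 (exact interval 2.46 to 9.02). There the tender peak spanned 9400 bp and the tough peak 2000 bp, while the scores per window were 2.89 and 2.87. Chromosome 14 had 3 of the 5 highest ratios. They lay from 3584401 to 3588800 (56 and 17 reads, ratio 3.29, 1.89 to 6.05), from 1626201 to 1629800 (40 and 15, ratio 2.67, 1.44 to 5.20) and from 3052801 to 3056800 (51 and 22, ratio 2.32, 1.38 to 4.01). The remaining one was on chromosome 2 from 4380601 to 4382600 (31 and 13, ratio 2.38, 1.21 to 4.97). In all 5, the tender peak was the longer one.

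In the other direction, chromosome 25 had a region from 3340801 to 3345800 with 15 tender and 43 tough reads, a ratio of 0.35 (0.18 to 0.64). Its tender peak was 1800 bp and its tough peak 5000 bp long, with scores per window of 3.90 and 4.23. Chromosome 7 had one from 3835601 to 3840800 (15 and 40, ratio 0.38, 0.19 to 0.69). On chromosome 11 a region from 2730201 to 2734600 had 12 and 30 reads (0.40, 0.19 to 0.80). A compact region of chromosome 16 from 2058601 to 2060000 had 17 and 41 (0.41, 0.22 to 0.75), and one of chromosome 17 from 269601 to 270800 had 12 and 28 (0.43, 0.20 to 0.87). Of the 13 pairs with a 2-fold higher tender count, 11 had the longer peak in the tender library, and of the 11 with a 2-fold higher tough count, 10 had it in the tough library. These pairs were picked as extremes of 459, and their intervals take no account of that choice.

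The 4 regions nearest to position 0 were weak, and they were higher in the tough library or absent from the tender one. On chromosome 5 a tough-only region ran from 1 to 1600 (score 42.0, 16 reads), and on chromosome 11 another from 201 to 1000 (30.9, 12 reads). Chromosome 18 had a shared region from 1 to 1400 with scores of 27.8 (tender) and 55.7 (tough), from 11 and 20 reads. Chromosome 2 had one from 1001 to 1400 with scores of 28.6 and 48.9, from 10 and 16 reads. The read ratios of the last 2, 0.55 (0.24 to 1.20) and 0.62 (0.25 to 1.46), were not distinguishable from 1 at this depth. The fifth, on chromosome 21 from 24401 to 26800, had 91.7 and 70.5 from 33 and 28 reads. The tough score was higher, or present alone, in all 4 regions within the first 10 kb, a window chosen after these values were seen. It was higher in 178 of the other 509 shared regions of the first 5 Mb (35.0%) and in 36.3% of all shared autosomal regions.

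A second pair of deposited peak lists described the same libraries on another genome build, as the last peak of chromosome X was at 87.9034 Mb in these lists and at 148.8108 Mb in those used above. There, the first 5 Mb held 717 of 13697 regions, with a density ratio of 0.913 (0.846 to 0.984) and a median over chromosomes of 0.518. All 29 chromosomes were on the same side of 1 in both, and the same 5 chromosomes were the fullest. The number of regions differed by at most 5 on 24 chromosomes. The exceptions were chromosomes 14 (78 and 64), 18 (37 and 43), 19 (0 and 10), 25 (138 and 148) and 28 (26 and 16), and the ratio of chromosome 28 fell from 0.92 to 0.55. The empty end of chromosome 19 was thus a feature of 1 of the 2 sequences, on which position 0 need not be the same place. The start of the first region differed as well. In the second lists it was at position 57801 on chromosome 23, 291201 on chromosome 12, 521401 on chromosome 15 and 775601 on chromosome 19. It lay beyond 1 Mb on chromosomes 4 (4593001), 6 (1744201), 9 (1422201) and 20 (1687201).

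**Figure D5:**
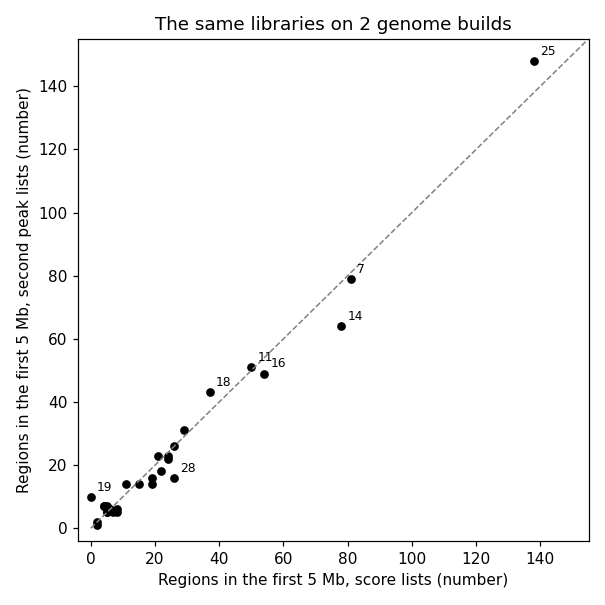
Number of merged regions in the first 5 Mb of each autosome in the lists with scores used throughout (horizontal axis) and in the second lists of the same libraries on another build (vertical axis), with a dashed line of equality and chromosome numbers beside the fullest and the most divergent. Most points lie near the line, and chromosome 19 moves from 0 to 10.

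On that other build the tips of chromosomes 11 and 2 carried high scores. The highest-scoring regions of its first 5 Mb were on chromosome 11 from 1 to 4800, with scores of 998.6 (tender) and 1738.4 (tough), and on chromosome 2 from 1 to 7400, with 881.6 and 1368.4. Another within its first 10 kb, on chromosome 2 from 8201 to 8600, was tough-only with a score of 27.8. Chromosomes 5 and 18 had no region within the first 10 kb there. The next highest, on chromosome 25 from 1986401 to 2006600, scored 459.0 and 447.9, in 4 tender and 2 tough peaks. The highest scores at the tips of chromosomes 2 and 11 were far higher there than in the lists used above. Positions were not matched between the builds, so these need not be the same sequences. In both lists the tough score was the higher or the only one at these tips.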

How the data were processed

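H3K4me3 ChIP-Seq was compared between 1 pooled tender and 1 pooled tough library of bovine LD. By their methods, the authors aligned 25 bp reads to bosTau4 with Maq (at most 1 mismatch, unique positions, duplicates removed) and called peaks with SICER (1.1 in the submitters' processing notes; 200 bp windows, 400 bp gaps, E-value 100); no control library is named. The deposited lists give positions and a SICER score per peak. The lists used (12930 tender and 11535 tough peaks) state no build and need not be on bosTau4; a second pair (12452 and 11395 peaks) is on another build. Their positions were kept as given.

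Peaks of both libraries were merged at 1 bp of overlap (Python 3.11.15, pandas 2.3.3, numpy 2.4.6, scipy 1.17.1). The last peak end stood in for chromosome length. Reads were solved from scores up to 180 (tolerance 1.5e-09); raising the mean by 0.1% matched 0 peaks. Both steps recovered 100% of simulated data, which were built with the same score formula and a known mean. The simulated regions had no split peaks or close neighbours, so this was a check of the code only. Shares have Wilson intervals, counts exact Poisson or binomial intervals, and medians intervals from order statistics over peaks. No test was run, since each group is 1 library. Members and lists were chosen with earlier results of these data known. Named regions are the 10 highest summed scores, the 5 highest of each library alone, the 5 longest, the 5 nearest position 0 and the 5 most extreme pairs each way with at least 20 reads. Named chromosomes are the 5 highest and 5 lowest by density ratio, the 5 fullest and any without regions. Others were named after their values were seen. Of the 28 listed muscle, calpain and other genes, only order was used, and peaks were not assigned to genes. Alternatives covered limits, overlap, score thresholds, equal numbers of peaks, other summaries and the second lists.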

Additional observations from a re-analysis of the deposited data

How the results depend on the processing

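Of 81 alternative values for 14 results, 57 stayed within the main value's interval or spread, 22 moved and 2 turned the direction. No paired analysis was possible because each group is 1 pooled library. The density ratio of 0.902 was below 1 in 14 of 16 alternatives. It turned to 1.00 (just above 1) with a limit of 3 Mb and to 1.02 when counted from the first region. It was 0.806 with a limit of 10 Mb, 0.568 as the median over chromosomes, 0.770 without chromosome 25 and 0.50 without the 5 fullest chromosomes. The last 2 settings and the second peak lists were added after seeing the data. Leaving out ends chosen for their high counts was bound to lower the ratio, so these 2 settings do not check its direction. All alternatives rest on the same 2 libraries, and the tally of 14 is not one of independent checks. The shared percentage of 70.0 became 56.7 with 50% overlap of both peaks, 66.0 at 2 times the lowest score and 73.4 with equal numbers of peaks. Tender-only regions went to 24.9% at 2 times the lowest score and 14.1% with equal numbers of peaks. Tough-only regions went to 12.5% with equal numbers of peaks, 12.4% at 10 Mb and 12.4% in the second lists. In shared regions alone the median score was 67.9 (tender) and 61.1 (tough), or 7.35 and 5.00 per window. With reads solved only up to a score of 100, medians were 17 and 20 reads. The centred log2 ratio was −0.00032 from scores, −0.0016 from summed scores and 0.087 at 2 Mb. The first 1 Mb held 17.3% of regions, and 24.1% in the second lists. The causes were not tested. Peaks rested on a median of 20 (tender) and 22 (tough) reads, which limits what the ratio of a single pair can show.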
